A study of Mus musculus with 6 samples.

Results

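The genes described here were 39 genes of the cardiac extracellular matrix and of fibrosis, chosen by symbol and matched through their Ensembl identifiers to the GENCODE annotation of mouse build GRCm38. All 39 were found among the 49315 genes of the deposited table, and all 39 passed the filter on low counts that left 12777 genes for testing. By role they were 5 fibrillar collagens, 5 other collagens of the interstitial matrix, 7 basement membrane genes, 5 matricellular genes, 8 genes for elastic fibres, microfibrils and adhesive glycoproteins, 3 cross-linking enzymes, 3 small leucine-rich proteoglycans and 3 metalloproteinase inhibitors. RNA was sequenced from the heart tissue of 6 mice on a C57BL/6 background. Of these, 3 hearts carried the conditional knock-in allele Txnip C247S and 3 were wild-type for Txnip. Txnip encodes thioredoxin-interacting protein, an alpha-arrestin that binds thioredoxin through a cysteine, and C247S replaces a cysteine with serine. The labels name MerCreMer, a recombinase that is active once tamoxifen is bound, and 4-hydroxytamoxifen for the hearts of both genotypes, so both share the recombinase and drug as far as the labels go. The labels do not say which promoter drives the recombinase, or what sex, age and litter the mice were. The comparison was of knock-in over wild-type hearts, with 3 hearts in each.

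The extracellular matrix of the heart is a mesh of fibrillar collagens, mainly types I and III, that surrounds and links the muscle cells and passes their force through the wall. Resident fibroblasts make most of it. Each muscle cell and capillary also rests on a basement membrane of collagen IV and laminins, much of it made by endothelial cells, muscle cells and fibroblasts themselves. Matricellular proteins such as periostin and the thrombospondins build little structure but alter how cells and matrix interact, and several of them are low in the resting adult heart. In fibrosis, fibroblasts activated by transforming growth factor beta lay down collagen, lysyl oxidases cross-link it, and proteases and their inhibitors set how fast it is removed.

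Library totals ran from 14146048 to 15620476 counts. Values are depth-scaled counts (CPM) after edgeR's TMM factors, and levels of different genes are compared only per length of exon, as TPM computed here. Txnip had 438, 391 and 429 CPM in the knock-in hearts and 724, 791 and 741 CPM in the wild-type hearts. Its log2 fold change was -0.84 ± 0.09, an SE from n = 3 hearts each, with an adjusted p of 0.00379 by edgeR's quasi-likelihood test and Benjamini-Hochberg adjustment. The altered codon itself is not visible in counts per gene, so this lower level is a result and does not check the genotype label. The heart muscle gene Myh6 stood at 16080 to 21495 CPM across the 6 hearts, while the atrial genes Myl7 and Sln were at most 0.346 CPM.

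One library stood apart for the matrix genes. Knock-in heart 2 had the lowest level of the 6 hearts for 30 of the 39 members, 76.9%, whereas 20.9% of all tested genes were lowest in it. Knock-in heart 1 was the highest for 21 members, 53.8%, against 17.9% of all tested genes. Both held at once for 16 members, 41.0%, against 4.88% of all tested genes. The mean of the members' log2 levels, each taken relative to its own mean over the 6 hearts, was 0.364, -0.478 and 0.0898 in knock-in hearts 1, 2 and 3, and 0.130, -0.0686 and -0.0367 in wild-type hearts 1, 2 and 3. The 3 wild-type hearts lay between the knock-in extremes. The range over the hearts was wider among knock-in than among wild-type libraries for 34 members, 87.2%, against 52.3% of all tested genes. It exceeded 2-fold within the knock-in hearts for 14 members and within the wild-type hearts for 2, counts that were not taken over all tested genes. For this reason the results are given with all 6 hearts, and those that rest on knock-in heart 2 are given again without it.

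**Figure D1:**
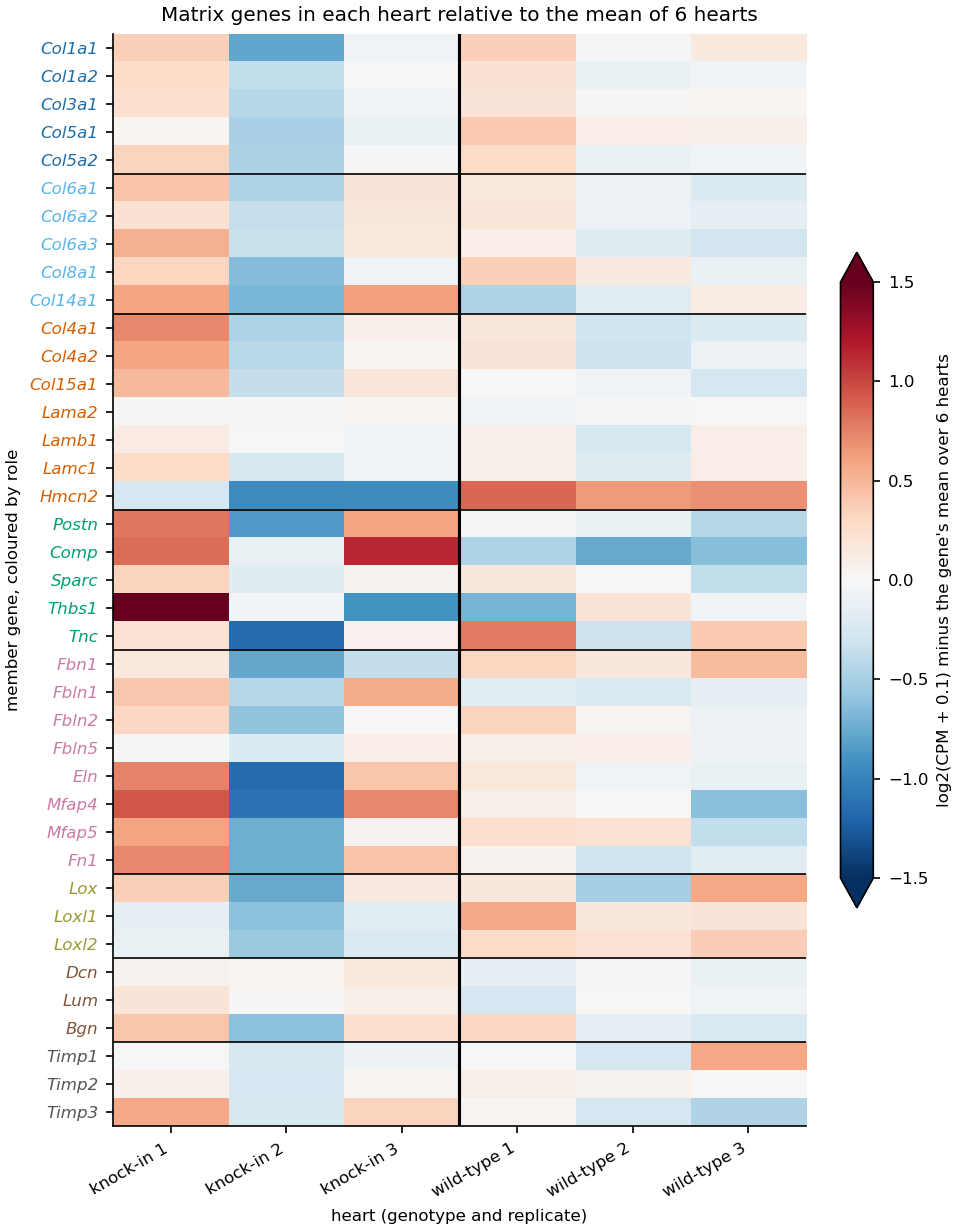
Level of each of the 39 matrix genes in each heart, as log2(CPM + 0.1) relative to the gene's mean over the 6 hearts, with the 3 knock-in hearts left of the 3 wild-type hearts and genes ordered by role. The column of knock-in heart 2 holds the lowest value for 30 genes and that of knock-in heart 1 the highest for 21.

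With all 6 hearts, 1 of the 39 members passed the test. Hmcn2, a basement membrane gene, fell in the knock-in hearts. Called genes, with an adjusted p under 0.05, made up 0.297% of the 12777 tested, which is 38 genes, 14 higher and 24 lower. At an unadjusted p under 0.05 there were 7 members, 17.9%, against a background of 9.97%. Comp and Timp3 were the 2 higher among them, where 4.74% of tested genes were higher. Hmcn2, Loxl1, Loxl2, Fbn1 and Col5a1 were the 5 lower, where 5.23% of tested genes were lower. The 2 genotypes did not overlap for 9 members, 23.1%, against 16.1% of all tested genes. Of these 9, Comp, Dcn, Lum and Lama2 were higher in every knock-in heart, against a background of 8.12%. The other 5 were the same 5 genes as above and were lower in every knock-in heart, against a background of 7.99%. An exact two-sided permutation test of 3 against 3 cannot go below 0.1, and it gave 0.1 for each of the 9. With other tools, DESeq2 called the members Hmcn2 and Comp, against 0.642% of all genes it tested, and limma-voom called the member Hmcn2, against 0.141%. With no filter on low counts edgeR called 5 members, Hmcn2, Comp, Fbn1, Loxl1 and Timp3, which is 12.8%, against 1.46% of all genes. The shares for DESeq2 and for no filter are over 21655 genes. These include genes that failed the filter on low counts, which all 39 members passed. DESeq2 gave no adjusted p for the member Tnc, and genes without one were not taken out of its share. Neither share is therefore a matched background for the members.

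The members as a whole did not move in 1 direction. Their fold changes were positive for 23 and negative for 16, with 59.0% positive against 48.3% of all tested genes, and 3 of the 23 (Lamb1, Lamc1 and Mfap5) turned just below 0 with library size scaling. The median log2 fold change was 0.04, beside -0.01 over all tested genes. Summed over the 39 members, the level was 1310, 817 and 1110 TPM in the knock-in hearts (1079 ± 248, SD, n = 3) and 1119, 964 and 902 TPM in the wild-type hearts (995 ± 112, SD, n = 3). The knock-in hearts held both the highest and the lowest sum. In bulk tissue, fewer cells of a type and less RNA per cell cannot be told apart, and this holds for every matrix gene below.

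**Figure D2:**
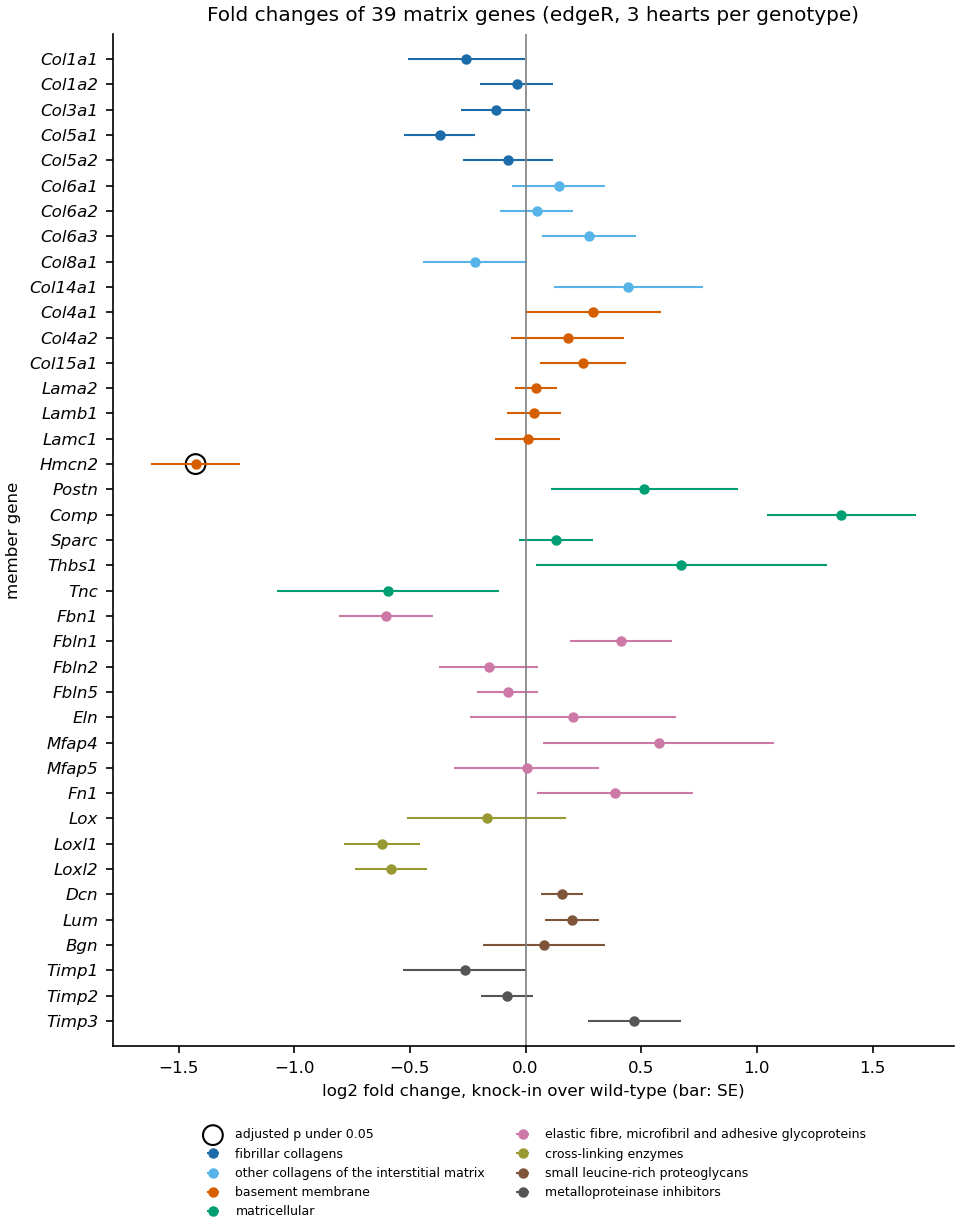
Log2 fold change, knock-in over wild-type, of the 39 matrix genes by role, with bars of 1 SE from edgeR (n = 3 each). Hmcn2 at -1.43 is the single gene with an adjusted p under 0.05, and the 5 fibrillar collagens and 3 cross-linking enzymes all lie below 0.

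Regulatory sequence of 3 of the 7 members at an unadjusted p under 0.05 is shown for reference beside their values. The stretches lie directly upstream of the RefSeq start (GRCm38.p6, plus strand, 5′ to 3′): Hmcn2 at chr2:31314082-31314331, Col5a1 at chr2:27886175-27886424 and Timp3 at chr10:86300162-86300371. Capitals mark exact matches, on either strand, to any of 7 short motifs: TATAAA (core promoter box), CCAAT (binding box of NF-Y), GGGCGG (GC box), CACGTG (E-box), CAGAC (SMAD element), TGANTCA (AP-1 site) and GGAATG (TEAD site).
Hmcn2: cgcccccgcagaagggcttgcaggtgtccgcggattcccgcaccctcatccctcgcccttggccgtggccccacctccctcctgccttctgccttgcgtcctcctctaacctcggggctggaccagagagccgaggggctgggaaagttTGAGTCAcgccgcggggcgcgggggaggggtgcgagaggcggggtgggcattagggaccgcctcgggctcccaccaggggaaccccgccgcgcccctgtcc
Col5a1: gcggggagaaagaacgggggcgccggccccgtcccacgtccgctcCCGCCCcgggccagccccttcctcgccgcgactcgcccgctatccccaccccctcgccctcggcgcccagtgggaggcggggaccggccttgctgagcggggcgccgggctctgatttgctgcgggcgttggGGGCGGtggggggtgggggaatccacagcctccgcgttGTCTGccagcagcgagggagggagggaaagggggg
Timp3: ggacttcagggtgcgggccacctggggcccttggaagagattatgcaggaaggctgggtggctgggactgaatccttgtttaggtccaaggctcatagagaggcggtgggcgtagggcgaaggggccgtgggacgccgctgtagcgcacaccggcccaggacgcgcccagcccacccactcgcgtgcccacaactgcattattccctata
The Hmcn2 window held 1 AP-1 match, and the Col5a1 window held 2 GC boxes, 1 of them on the minus strand, and 1 SMAD element on the minus strand. The Timp3 stretch, which ends at the annotated first exon, held no capitals, and the exon part of its window, not printed, held 1 GC box. Of the 39 members, 24 had a window of this kind. Among all 32851 upstream windows of 250 bases, 6.75% held TGANTCA, 32.7% held GGGCGG and 42.2% held CAGAC. Of the 24 members, 2, 15 and 14 held them in at least 1 window. Some members had more than 1 window, so counts per gene and shares per window are not directly comparable. A match of letters describes the window and is not a binding site.

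The basement membrane group held the 1 called gene. Hmcn2 encodes hemicentin-2, a very large extracellular protein with immunoglobulin repeats, of the hemicentin family known in worms and zebrafish from tissue anchoring at basement membranes. It lies on chromosome 2 at 31314415 to 31460738 (plus strand, GRCm38). Hmcn2 had 8.59, 5.27 and 5.32 CPM in the knock-in hearts and 18.8, 16.1 and 16.7 CPM in the wild-type hearts. The genotypes were far apart, with the highest knock-in heart below the lowest wild-type heart. These values rest on 132, 80 and 78 counts in the knock-in hearts and 276, 233 and 241 counts in the wild-type hearts. Hmcn2 fell by 1.43 ± 0.19 on the log2 scale (edgeR, adjusted p = 0.0205), which is 2.69-fold lower in the knock-in hearts. Its fold change kept its sign under every alternative run, from -1.69 without knock-in heart 1 to -1.29 without knock-in heart 2, with adjusted p of 0.00373 and 0.00539. The call was lost without knock-in heart 3 (adjusted p = 0.130), wild-type heart 1 (adjusted p = 0.0544), wild-type heart 2 (adjusted p = 0.120) or wild-type heart 3 (adjusted p = 0.0791), each by edgeR with 5 hearts. No stretch of 31 bases of its longest transcript was found in another annotated gene.

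The other 6 basement membrane members had positive fold changes of 0.01 to 0.29 on the log2 scale, of which Lamb1 and Lamc1 turned just below 0 with library size scaling, and 0 of them passed the test. The median of all 7 was 0.04, and -0.060 without knock-in heart 1. Col4a1, which with Col4a2 forms the common collagen IV trimer, was the most abundant of the 7 per length, at 132 ± 52.9 TPM in knock-in hearts and 109 ± 20.3 TPM in wild-type hearts (SD, n = 3 each). Col4a1 had 670.0, 295 and 428 CPM in the knock-in hearts and 457, 329.8 and 352 CPM in the wild-type hearts. The genotypes overlapped, with knock-in heart 1 the highest and knock-in heart 2 the lowest, and the log2 fold change was 0.29 ± 0.29 (adjusted p = 0.825 by edgeR). Col4a2, transcribed from the opposite strand of the same locus, had 404, 200.4 and 272 CPM in the knock-in hearts and 305, 215 and 252 CPM in the wild-type hearts. It followed the same order of hearts at its top and bottom as Col4a1. Lama2, the laminin alpha chain of muscle basement membranes, had 78.4, 78.2 and 79.3 CPM in the knock-in hearts and 74.9, 76.7 and 77.2 CPM in the wild-type hearts. Its genotypes did not overlap, but the log2 fold change was 0.04 ± 0.09 (adjusted p = 0.935 by edgeR), and knock-in heart 2 was level with the other knock-in hearts. Lamb1 and Lamc1, the other 2 laminin chains, had log2 fold changes of 0.04 ± 0.12 and 0.01 ± 0.14. Col15a1, which links basement membranes to the interstitial matrix, had a log2 fold change of 0.25 ± 0.19.

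The 5 fibrillar collagens, which form the tensile fibres of the heart wall, all had fold changes below 0, from -0.37 to -0.04 with a median of -0.13, and 0 passed the test. Their summed level was 83.0, 49.2 and 68.4 TPM in the knock-in hearts (66.9 ± 16.9, SD, n = 3) and 85.5, 70.4 and 71.5 TPM in the wild-type hearts (75.8 ± 8.41, SD, n = 3). The group was the lowest in knock-in heart 2, and that heart was the lowest for each of the 5 genes. Without knock-in heart 2 the median turned to 0.04. Col3a1, the chain of type III collagen, was the most abundant per length. Col3a1 had 159, 100.1 and 130.1 CPM in the knock-in hearts and 153, 136 and 137 CPM in the wild-type hearts. The genotypes overlapped, and the log2 fold change was -0.13 ± 0.15 (adjusted p = 0.854 by edgeR). Col5a1, a chain of the type V collagen that starts fibrils and sets their width, had the smallest p of the group. Col5a1 had 25.9, 18.1 and 23.6 CPM in the knock-in hearts and 33.5, 27.1 and 26.8 CPM in the wild-type hearts. All 3 knock-in hearts lay below all 3 wild-type hearts, and the log2 fold change was -0.37 ± 0.15, which did not pass the correction (adjusted p = 0.449 by edgeR). Col1a1 and Col1a2, the chains of type I collagen, had log2 fold changes of -0.26 ± 0.25 and -0.04 ± 0.16, and Col5a2 had -0.08 ± 0.19.

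**Figure D3:**
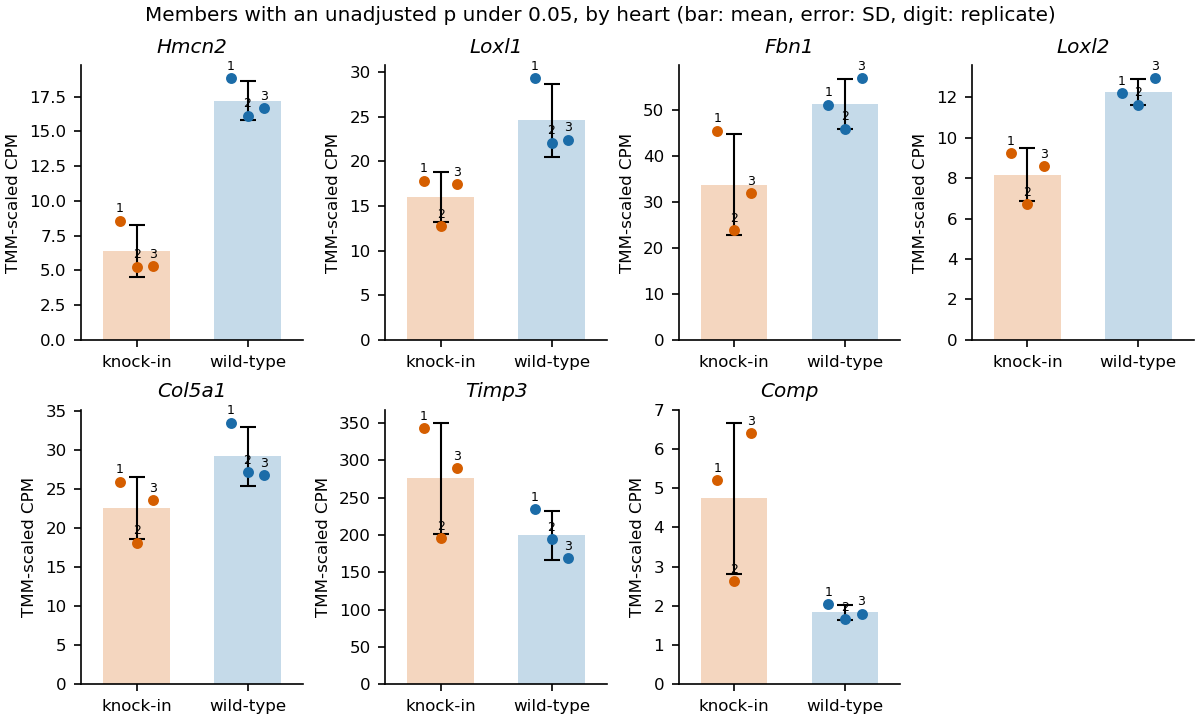
CPM in each heart of the 7 members with an unadjusted p under 0.05, with knock-in left of wild-type, bars at the mean, error bars of 1 SD (n = 3 each) and digits for the replicate. For Hmcn2 the knock-in hearts sit at 5.27 to 8.59 CPM and the wild-type hearts at 16.1 to 18.8 CPM, and Timp3 is the 1 gene of the 7 whose genotypes overlap.

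Chains that assemble into 1 trimer were set against each other within each heart, as ratios of their TPM, with no test. Col1a1 over Col1a2 was 1.44, 1.02 and 1.31 in the knock-in hearts and 1.49, 1.44 and 1.55 in the wild-type hearts. Col5a1 over Col5a2 was 1.09, 1.33 and 1.26 in the knock-in hearts and 1.45, 1.54 and 1.46 in the wild-type hearts. These 2 pairs had lower ratios in every knock-in heart than in any wild-type heart, by a narrow margin for type I. How often ratios of other gene pairs separate in this way was not examined. The type V ratio is also not independent of Col5a1, which was itself lower in every knock-in heart. Col4a1 over Col4a2 was 1.47, 1.31 and 1.40 in the knock-in hearts and 1.33, 1.36 and 1.24 in the wild-type hearts. Col6a1 over Col6a2 was 1.98, 1.60 and 1.76 in the knock-in hearts and 1.68, 1.72 and 1.66 in the wild-type hearts. Lamb1 over Lamc1 was 0.417, 0.558 and 0.463 in the knock-in hearts and 0.469, 0.449 and 0.467 in the wild-type hearts. For these 3 pairs the genotypes overlapped, although knock-in heart 2 was at an end of the knock-in values in each. The height of a ratio depends on the exon lengths used. For Col1a2 these join to 12426 bases, far more than its longest transcript, and for Col1a1 to 6563. A ratio above or below 1 therefore does not show which chain was higher. Only the same ratio can be compared between hearts, and a difference does not show which of the 2 genes differed.

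Of the 5 other interstitial collagens, 4 had fold changes above 0, the median was 0.14 (-0.042 without knock-in heart 1), and 0 passed the test. Col6a1, a chain of the microfibrillar collagen VI that anchors cells to the matrix, was the most abundant per length. Col6a1 had 64.9, 35.2 and 55.3 CPM in the knock-in hearts and 53.4, 45.4 and 41.9 CPM in the wild-type hearts. The genotypes overlapped, and the log2 fold change was 0.14 ± 0.20 (adjusted p = 0.889 by edgeR). Col14a1, a collagen that sits on fibril surfaces, had the smallest p of the group. Col14a1 had 14.7, 6.00 and 14.9 CPM in the knock-in hearts and 7.02, 8.66 and 10.5 CPM in the wild-type hearts. Knock-in hearts 1 and 3 were above every wild-type heart and knock-in heart 2 was below them all, and the log2 fold change was 0.44 ± 0.32 (adjusted p = 0.731 by edgeR). Col6a2, Col6a3 and Col8a1 had log2 fold changes of 0.05 ± 0.16, 0.27 ± 0.20 and -0.22 ± 0.22.

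The matricellular genes had the highest median of the 8 role groups at 0.51, with 4 of 5 fold changes above 0, and 0 passed the test. Their summed level was 256, 174 and 215 TPM in the knock-in hearts (215 ± 40.8, SD, n = 3) and 227, 204 and 154 TPM in the wild-type hearts (195 ± 37.6, SD, n = 3). Without knock-in heart 1 the median was -0.00095, and without knock-in heart 2 it was 0.88. Comp, cartilage oligomeric matrix protein or thrombospondin 5, binds collagen fibrils and is also made by activated fibroblasts. Comp lies on chromosome 8 at 70373558 to 70382066 (plus strand, GRCm38). Comp had 5.20, 2.64 and 6.41 CPM in the knock-in hearts and 2.04, 1.66 and 1.80 CPM in the wild-type hearts, from 80, 40 and 94 counts in the knock-in hearts and 30, 24 and 26 counts in the wild-type hearts. Every knock-in heart was above every wild-type heart, with knock-in heart 2 the nearest to them. The log2 fold change was 1.37 ± 0.32 and did not pass the correction (adjusted p = 0.146 by edgeR). DESeq2 called Comp (adjusted p = 0.0232), and so did edgeR without knock-in heart 2 (log2 fold change 1.66 ± 0.24, adjusted p = 0.00419). Over all alternatives its adjusted p ran from 0.000158 with no filter on low counts to 0.531 without knock-in heart 3, both by edgeR.

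The other matricellular genes varied more among knock-in hearts than between genotypes. Sparc, a collagen-binding protein, was the most abundant of all 39 members per length, at 201 ± 34.6 TPM in knock-in hearts and 186 ± 37.0 TPM in wild-type hearts (SD, n = 3 each). Sparc had 426, 298 and 353 CPM in the knock-in hearts and 382, 340 and 262 CPM in the wild-type hearts. The genotypes overlapped, and the log2 fold change was 0.13 ± 0.16 (adjusted p = 0.864 by edgeR). Postn, encoding periostin, a marker of activated fibroblasts, had 40.0, 12.8 and 34.8 CPM in the knock-in hearts and 22.8, 21.5 and 17.0 CPM in the wild-type hearts. As with Col14a1, knock-in hearts 1 and 3 were above the wild-type hearts and knock-in heart 2 below them, and the log2 fold change was 0.51 ± 0.40 (adjusted p = 0.757 by edgeR). Thbs1, an activator of latent transforming growth factor beta, had 17.2, 5.86 and 3.20 CPM in the knock-in hearts and 3.68, 6.93 and 5.88 CPM in the wild-type hearts, so 1 knock-in heart alone was high. Tnc, encoding tenascin-C, was the least abundant of the 39 members, at 0.169 ± 0.085 TPM in knock-in hearts and 0.260 ± 0.103 TPM in wild-type hearts (SD, n = 3 each), with a log2 fold change of -0.60 ± 0.48.

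**Figure D4:**
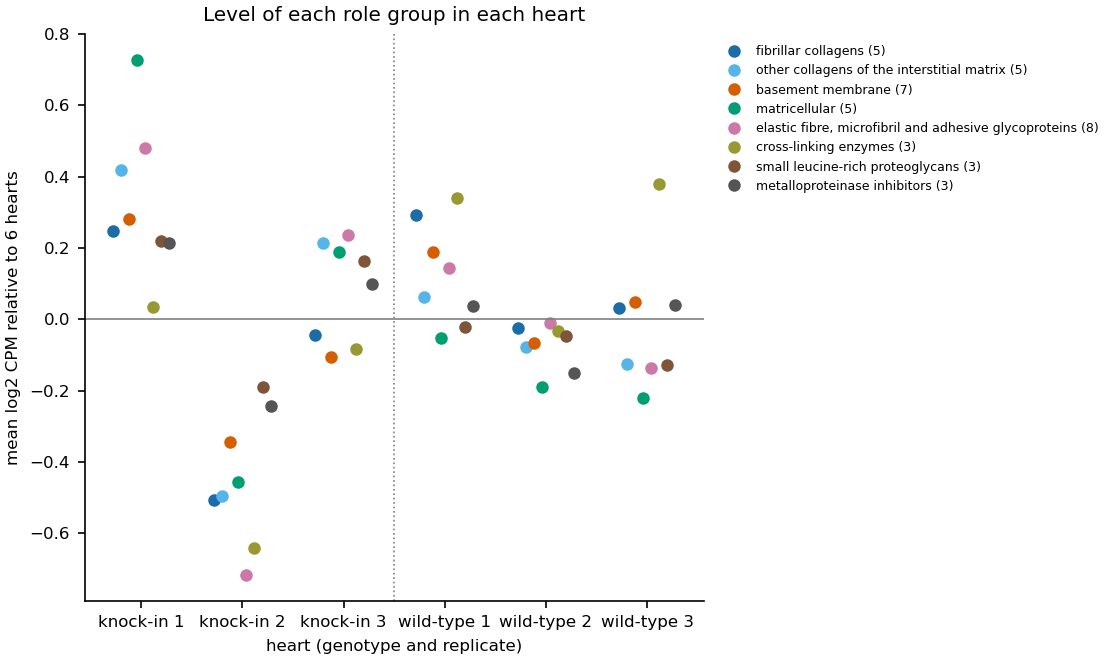
Mean log2 CPM of each role group in each heart, relative to each gene's mean over the 6 hearts, with the 3 knock-in hearts left of the 3 wild-type hearts and the number of genes in brackets. In knock-in heart 1 the groups stand at 0.0361 to 0.729 and in knock-in heart 2 at -0.717 to -0.189, while the wild-type hearts hold groups on both sides of 0.

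Among the 8 elastic fibre, microfibril and adhesive genes, 5 fold changes were above 0 (Mfap5 was below 0 with library size scaling), the median was 0.11 (-0.12 without knock-in heart 1 and -0.03 by limma-voom), and 0 passed the test. Knock-in heart 2 was the lowest heart for all 8. Fbn1, encoding fibrillin-1, the main microfibril protein and a store for latent growth factors, had the smallest p. Fbn1 had 45.5, 23.8 and 31.9 CPM in the knock-in hearts and 51.1, 45.9 and 56.8 CPM in the wild-type hearts. The genotypes did not overlap, with knock-in heart 1 just under the lowest wild-type heart, and the log2 fold change was -0.60 ± 0.20 (adjusted p = 0.347 by edgeR). Of the 31-base words of the longest Fbn1 transcript, 20.2% recur in other genes. Gm9913 on the opposite strand shared the most and had 0 to 4 counts per heart. Fbln1, encoding the glycoprotein fibulin-1, was the most abundant of the 8 per length. Fbln1 had 92.2, 51.7 and 103 CPM in the knock-in hearts and 62.5, 59.3 and 63.3 CPM in the wild-type hearts. Knock-in hearts 1 and 3 were above every wild-type heart and knock-in heart 2 below them all, and the log2 fold change was 0.41 ± 0.22 (adjusted p = 0.603 by edgeR).

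Eln, encoding elastin, had one of the widest spreads, with 43.1, 11.5 and 34.4 CPM in the knock-in hearts and 28.8, 24.5 and 23.9 CPM in the wild-type hearts. Its range was 3.74-fold among knock-in hearts and 1.20-fold among wild-type hearts. Mfap4, an elastic fibre glycoprotein, ranged 4.21-fold among knock-in hearts and 1.65-fold among wild-type hearts, with a log2 fold change of 0.58 ± 0.50. Fn1, encoding fibronectin, on which other matrix proteins are assembled, had a log2 fold change of 0.39 ± 0.34. Fbln2, Fbln5 and Mfap5 had log2 fold changes of -0.16 ± 0.21, -0.08 ± 0.13 and 0.0046 ± 0.31.

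The 3 cross-linking enzymes oxidise lysines of collagen and elastin so that the fibres bond to each other. All 3 fold changes were below 0, with a median of -0.58, and 0 passed the test. Loxl1, which acts mainly on elastic fibres, was the most abundant of the 3 per length. Loxl1 had 17.8, 12.8 and 17.4 CPM in the knock-in hearts and 29.3, 22.1 and 22.4 CPM in the wild-type hearts. Loxl2, which acts on collagens, had 9.24, 6.72 and 8.59 CPM in the knock-in hearts and 12.2, 11.6 and 12.9 CPM in the wild-type hearts. For both genes every knock-in heart was below every wild-type heart. The log2 fold changes were -0.62 ± 0.17 for Loxl1 (adjusted p = 0.206 by edgeR) and -0.58 ± 0.16 for Loxl2 (adjusted p = 0.207 by edgeR). Of the 31-base words of the longest Loxl2 transcript, 47.3% recur in other genes. The pseudogene Gm21451 shared the most and had 0 to 2 counts per heart, so few reads were counted for that copy. Whether reads that match both copies were left out of the Loxl2 counts is not known. Lox itself had 3.84, 1.71 and 3.27 CPM in the knock-in hearts and 3.34, 2.08 and 4.50 CPM in the wild-type hearts. Its genotypes overlapped, and its log2 fold change of -0.17 ± 0.34 was within the spread of its hearts.

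The small leucine-rich proteoglycans, which coat collagen fibrils and space them, had 3 of 3 fold changes above 0 and a median of 0.16, and 0 passed the test. Dcn, encoding decorin, was the most abundant per length, at 129 ± 7.47 TPM in knock-in hearts and 117 ± 5.11 TPM in wild-type hearts (SD, n = 3 each). Dcn had 347, 341 and 374 CPM in the knock-in hearts and 309, 331 and 313 CPM in the wild-type hearts. The genotypes did not overlap, and knock-in heart 2 was close to knock-in heart 1, unlike in most members. The log2 fold change was 0.16 ± 0.09 (adjusted p = 0.626 by edgeR). Lum, encoding lumican, had 36.0, 31.9 and 33.4 CPM in the knock-in hearts and 26.3, 31.5 and 30.3 CPM in the wild-type hearts. Its genotypes also did not overlap, by a margin under 1 CPM, with a log2 fold change of 0.20 ± 0.12. Bgn, encoding biglycan, ranged 2.05-fold among knock-in hearts and had a log2 fold change of 0.08 ± 0.26.

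The 3 inhibitors of metalloproteinases block the enzymes that cut the matrix. Their median was -0.08 (0.027 without knock-in heart 2 and 0.021 without wild-type heart 3), with 1 of 3 fold changes above 0, and 0 passed the test. Timp3, the inhibitor that stays bound to the matrix, was the most abundant of the 3 per length and had the smallest p. Timp3 had 343, 196 and 290.1 CPM in the knock-in hearts and 235, 194 and 169 CPM in the wild-type hearts. Knock-in hearts 1 and 3 were above every wild-type heart and knock-in heart 2 was among them, and the log2 fold change was 0.47 ± 0.20 (adjusted p = 0.479 by edgeR). Timp3 lies within Syn3 on the opposite strand. Of the 31-base words of its longest transcript, 36.9% recur in other genes, most of all in Syn3, but Syn3 had 3 to 10 counts per heart. Timp1 and Timp2 had log2 fold changes of -0.26 ± 0.27 and -0.08 ± 0.11.

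Leaving out knock-in heart 2 changed the list of called members more than any other choice tried. Of the 39 members, 9 were then called, 23.1%, where 1.34% of the genes tested in that fit were called. Higher in the knock-in hearts were 8, against a background of 0.677%, and Hmcn2 was the 1 lower, against a background of 0.661%. At an unadjusted p under 0.05 there were 18 members, 46.2%, against 15.3% of the genes in that fit. That heart was singled out because it was lowest for 30 of the 39 members. Leaving it out raises the knock-in means of those 30, so these shares are not independent of that choice. The 8 higher genes came from 4 role groups. Their log2 fold changes without that heart were 1.66 for Comp, 0.999 for Mfap4, 0.88 for Postn, 0.77 for Col14a1, 0.72 for Fn1, 0.68 for Timp3, 0.67 for Fbln1 and 0.60 for Eln. Among the fibrillar collagens and the cross-linking enzymes, 0 were called in that fit. The median over the 39 members was then 0.19, beside -0.11 without knock-in heart 1. The summed fibroblast and endothelial markers, given at the end, were also lowest in knock-in heart 2, and their part in these results was not tested.

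**Figure D5:**
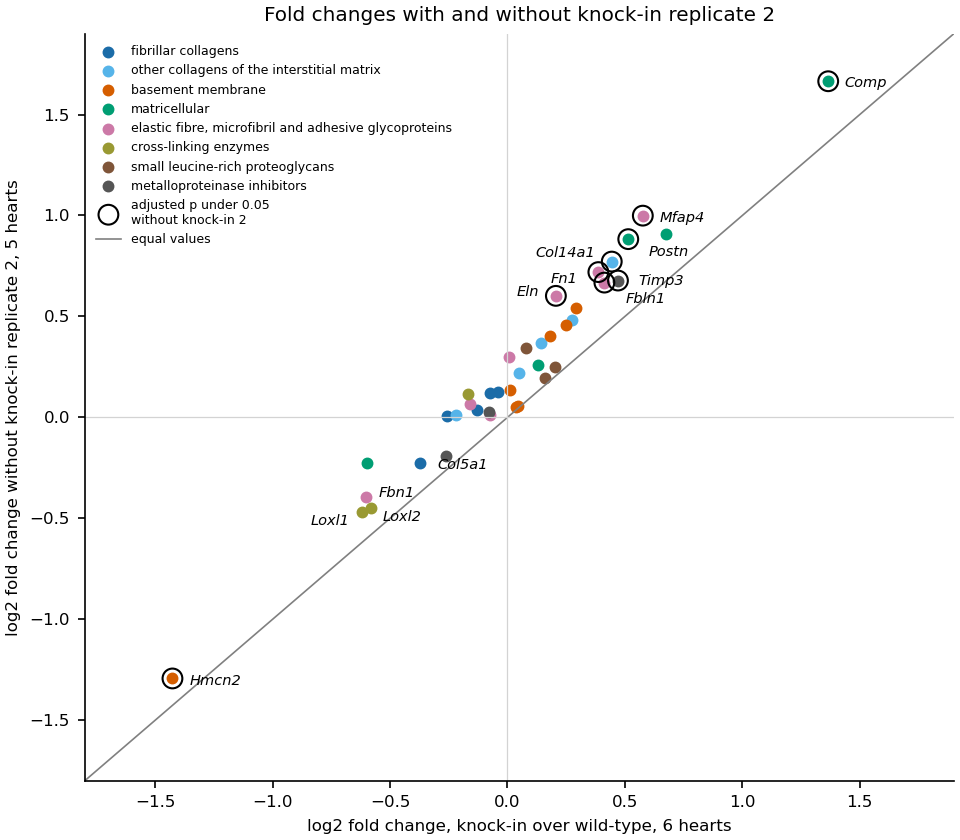
Log2 fold change, knock-in over wild-type, of each member from 5 hearts without knock-in heart 2 (y axis) against that from all 6 hearts (x axis), coloured by role, with rings round the 9 members called without that heart. Most points lie above the line of equal values, and Hmcn2 at -1.43 with 6 hearts and -1.29 with 5 is ringed at the lower left.

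Related genes outside the 39 members were read from 6 lists, and 0 of their genes were called by edgeR with all 6 hearts or by limma-voom. Without knock-in heart 2, edgeR called 1 gene of transforming growth factor beta and profibrotic signalling, higher in the knock-in hearts. Of the other interstitial matrix genes it then called 2 higher and 1 lower, with Emilin2 among them. The 1 called gene of the signalling list is also on this list and is among the 2 higher. In that fit 1.34% of all tested genes were called. Over all tested genes, 4.74% were higher and 5.23% lower at an unadjusted p under 0.05 with all 6 hearts. Among 33 tested genes of transforming growth factor beta and profibrotic signalling, 5 were higher and 3 lower at that p. Their median log2 fold change was 0.05. Among 32 other interstitial matrix genes, 4 were higher and 4 lower at that p, with a median of 0.11. Emilin2, an elastic fibre glycoprotein, had 63.2, 61.2 and 61.0 CPM in the knock-in hearts and 40.6, 44.1 and 46.9 CPM in the wild-type hearts. Its knock-in hearts were close together and all above the wild-type hearts, and the log2 fold change was 0.50 ± 0.10 (adjusted p = 0.0912 by edgeR). DESeq2 called Emilin2 higher.

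The remaining lists held fewer such genes, to be read beside the same shares over all tested genes, 4.74% higher and 5.23% lower. Among 26 proteases of the matrix, 2 were higher and 2 lower at an unadjusted p under 0.05, with a median of -0.03, and the log2 fold change of Adamts5, an aggrecan-cutting protease, was -0.58 ± 0.18 (edgeR, adjusted p = 0.274). Among 23 matrix receptors, 1 was higher and 1 lower with a median of 0.06, and the log2 fold change of Sdc4, encoding the receptor syndecan-4, was 0.71 ± 0.15 (edgeR, adjusted p = 0.110), and DESeq2 called it higher. Among 21 collagen processing enzymes and chaperones and 21 other basement membrane genes, 0 reached an unadjusted p under 0.05, with medians of 0.08 and 0.04. The smallest p belonged to Adamts2 in the first of these lists, at a log2 fold change of -0.37 (edgeR, adjusted p = 0.515), and to Pxdn in the second, at 0.28 (edgeR, adjusted p = 0.530).

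Levels of cell markers are given beside those of the matrix genes, and whether they moved together was not tested. The 15 cardiac fibroblast markers, of which Mfap5 is also a member, summed to 1488, 1163 and 1496 CPM in the knock-in hearts and 1333, 1311 and 1266 CPM in the wild-type hearts. Their sum was lowest in knock-in heart 2, their median log2 fold change was 0.0046, and 0 were called by edgeR, with 1 higher and 2 lower at an unadjusted p under 0.05. The fibroblast marker Cd248 was called lower by DESeq2, and by edgeR without knock-in heart 2. The 14 endothelial markers summed to 1753, 1151 and 1678 CPM in the knock-in hearts and 1707, 1249 and 1245 CPM in the wild-type hearts. Pecam1, the endothelial adhesion molecule, had 192, 123 and 184 CPM in the knock-in hearts and 162, 122 and 118 CPM in the wild-type hearts. Both endothelial values were low in knock-in heart 2 and in wild-type hearts 2 and 3. Nppa, a natriuretic peptide gene of strained and atrial muscle, had 573, 151 and 286 CPM in the knock-in hearts and 207, 252 and 103 CPM in the wild-type hearts.

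The 12 activated fibroblast markers, 11 of them tested, summed to 155, 145 and 142 CPM in the knock-in hearts and 237, 266 and 233 CPM in the wild-type hearts. Acta2, smooth muscle actin and the 1 gene of the list called with all 6 hearts, had 74.2, 93.7 and 72.5 CPM in the knock-in hearts and 177, 209 and 182 CPM in the wild-type hearts. Without knock-in heart 2, edgeR also called 1 other gene of the list, higher in the knock-in hearts. That gene is the same 1 called in the signalling list and among the other interstitial matrix genes. Acta2 fell by 1.24 ± 0.12 in log2 units (edgeR, adjusted p = 0.00268), and knock-in heart 2 was not low for it. The lower sum was carried by Acta2, since 8 of the 11 tested markers had fold changes above 0, with a median of 0.14. The 11 markers other than Acta2, a sum taken after its values were seen, came to 80.9, 50.9 and 69.8 CPM in the knock-in hearts and 60.4, 57.3 and 51.2 CPM in the wild-type hearts, lowest in knock-in heart 2. The 15 smooth muscle and pericyte markers, Acta2 among them, summed to 2946, 2630.0 and 2690.0 CPM in the knock-in hearts and 3161, 3078 and 2733 CPM in the wild-type hearts. The 15 macrophage and monocyte markers summed to 339, 311 and 311 CPM in the knock-in hearts and 465, 463 and 402 CPM in the wild-type hearts, and every knock-in heart was below every wild-type heart. Of these 15, 14 had fold changes below 0 with a median of -0.49. At an unadjusted p under 0.05, 8 were lower, against 5.23% of all tested genes. Without overlap of the genotypes, 10 were lower, against 7.99% of all tested genes. By edgeR Lyz2 was called lower, against 0.188% of all tested genes. DESeq2 called Lyz2, Cx3cr1, C1qc and F13a1 lower, where it called 0.642% of 21655 genes in either direction. By limma-voom 0 of the 15 were called. The 14 cardiomyocyte markers, 12 of them tested, summed to 94715, 92220.2 and 93699 CPM in the knock-in hearts and 84366, 83575 and 86548 CPM in the wild-type hearts, with every knock-in heart above every wild-type heart. Of the 12, 9 had fold changes above 0 with a median of 0.07, and Myl2 was called higher. Only 2 of the 12 were higher without overlap of the genotypes, against 8.12% of all tested genes. At an unadjusted p under 0.05, 2 were higher, against 4.74% of all tested genes. The tested valve, tendon and cartilage markers were 4 of 16, and the list summed to 21.3, 9.29 and 12.3 CPM in the knock-in hearts and 14.6, 12.6 and 12.5 CPM in the wild-type hearts, with Col9a1 and Matn1 at 0 in all 6 hearts. The 10 epicardial markers, of which 3 were tested, summed to 5.99, 5.14 and 5.32 CPM in the knock-in hearts and 9.54, 6.37 and 6.44 CPM in the wild-type hearts. The part of these cells in the matrix results was not tested.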

How the data were processed

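Per the labels' protocols, libraries were prepared from total RNA of 6 hearts. The authors deposited raw read counts per Ensembl gene. Tools named in the submitters' processing notes, without roles, were Subread 1.5.2, STAR, featureCounts and DESeq2, on GRCm38.p6. How the counting treated strand and multi-mapped reads, and the annotation release, was not given in the sources used here, so overlapping or near-identical genes can gain or lose reads.

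Identifiers were matched to GENCODE release M21 (GRCm38). The members and all lists were chosen with earlier results of these data known. Counts were tested across all genes with edgeR 4.0.16 (R 4.3.3): filterByExpr, TMM, glmQLFit with robust estimation and glmQLFTest, 3 against 3 hearts with no covariate, and Benjamini-Hochberg adjustment at 0.05. The SE is the log2 fold change over the square root of F. The fit was tested on simulated data. TPM used the union of annotated exons, which can exceed the length of any 1 transcript, so levels of different genes per length depend on it. The overall biological coefficient of variation was 14.0%. Within a genotype, all pairs of hearts differed beyond sampling noise (chi-square over its degrees of freedom, 6.70 to 25.1), and each heart was 1 replicate. The pairs with wild-type heart 3 stood at 20.0 and 19.0, beside 6.70 for the other wild-type pair. That heart had 28.0% of its counts from mitochondrially encoded genes, where the other hearts had 22.9% to 24.3%. The numbers of replicates are in order of accession. A floor of 3 counts equals 0.195 to 0.208 CPM and covers counting error only.

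The mean member levels use log2 CPM with a prior count of 2. Given in full were members called or at an unadjusted p under 0.05 and, per role, the member with the smallest p and that with the highest TPM. Col4a2, Lama2, Postn, Thbs1, Eln, Lox, Lum, Pecam1, Nppa, Acta2, Cd248, Cx3cr1, C1qc, F13a1 and Myh6 were added after their values were seen. From each pathway list the gene with the smallest p is named, except 1 that is not reported here. Alternatives were other scalings, filters, tools and leaving out each heart. Upstream sequences are from RefSeq (GRCm38.p6) and exclude annotated exons.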

Additional observations from a re-analysis of the deposited data

How the results depend on the processing

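With all genes, 38 were called as reported, 317 with no filter on low counts, 139 by DESeq2, 18 by limma-voom and 75 at an adjusted p under 0.1. Leaving out 1 heart at a time gave 5 to 174 calls. Among the 39 members, 1 was called as reported, 5 with no filter (Hmcn2, Comp, Fbn1, Loxl1 and Timp3), 2 by DESeq2 (Hmcn2 and Comp) and 0 to 9 on leaving out 1 heart, with the 9 named in the report without knock-in heart 2. Members at an unadjusted p under 0.05 ran from 5 to 18 on leaving out 1 heart. The matricellular median of 0.51 ran from -0.00095 to 0.88 in the same way. Other medians that turned sign were those of all members (-0.11), other interstitial collagens (-0.042), basement membrane (-0.060) and elastic fibre genes (-0.12) without knock-in heart 1, fibrillar collagens (0.037) and inhibitors (0.027) without knock-in heart 2, inhibitors (0.021) without wild-type heart 3, and elastic fibre genes (-0.03) by limma-voom. Those of the cross-linking enzymes and the proteoglycans kept their sign under every alternative run. Other scalings and filters, DESeq2, limma-voom and non-robust estimation left 36 of the 39 members with their sign. Those that turned were near 0: Lamb1 at -0.0032 and Lamc1 at -0.029 with library size scaling, Lamc1 at -0.0013 by limma-voom, and Mfap5 at -0.038 with library size scaling and -0.067 by limma-voom. Library size scaling moved the median of all genes to -0.05. On leaving out 1 heart, 21 members turned sign at least once, with log2 fold changes of Bgn -0.11 to 0.34, Col1a1 -0.53 to 0.0085, Col1a2 -0.19 to 0.12, Col3a1 -0.29 to 0.037, Col4a1 -0.060 to 0.54, Col4a2 -0.11 to 0.40, Col5a2 -0.28 to 0.12, Col6a1 -0.042 to 0.37, Col6a2 -0.047 to 0.22, Col8a1 -0.46 to 0.012, Eln -0.16 to 0.60, Fbln2 -0.37 to 0.064, Fbln5 -0.15 to 0.014, Lamb1 -0.064 to 0.10, Lamc1 -0.14 to 0.13, Lox -0.41 to 0.12, Mfap5 -0.35 to 0.30, Sparc -0.0083 to 0.26, Thbs1 -0.27 to 1.07, Timp1 -0.43 to 0.021 and Timp2 -0.13 to 0.027. The cause was not tested. No paired analysis was possible because the labels give the hearts no shared replicate numbers. With 3 hearts per genotype, differences smaller than the spread among hearts, such as those of Tnc at 4 to 19 counts, were not detectable at this depth.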
